A study of Mus musculus with 90 samples.

Results

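CT26 cells, a mouse colon carcinoma line, were kept for up to 3 weeks as control cultures beside cultures exposed to IFNγ. The comparison here was of the control cultures alone, 3 weeks against the start. It used the 3 samples labelled as 3-week controls and the 3 labelled as 0-week controls, 6 of the 90 samples of the series. The genes that changed were then followed through the 3 control samples at 1 week and the 3 at 2 weeks. Control cultures received BSA in place of the cytokine, at 0 IU/mL IFNγ. They were grown in RPMI-1640 with fetal bovine serum and antibiotics and replated at a fixed density before harvest. The IFNγ cultures received 50 IU/mL and were collected without rechallenge or 2 or 24 h after fresh IFNγ. The same design was run in YUMM2.1, a mouse melanoma line. The labels of the CT26 groups differ in time in culture and IFNγ and name no genotype or transgene.

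The assay was 3′ digital gene expression, which reads each transcript from its 3′ end, and counts per gene were deposited for each sample. The 12 CT26 control samples held between 947459 and 2205285 counts each, with 1458270 to 1677329 at 0 weeks and 1318011 to 2183005 at 3 weeks. Mitochondrially encoded transcripts took 5.54 to 7.0% of them. The labels name triplicates, and the study states in general terms that its replicates were independent. Neither says whether each was a separate culture over the whole 3 weeks, so p-values measure the spread between samples of the same label. That spread was estimated over all 45 CT26 samples, IFNγ cultures included. Levels are given in CPM, the count of a gene relative to the TMM-scaled size of its library, for replicates 1, 2 and 3 in that order. The test was the quasi-likelihood test of edgeR, with p adjusted by Benjamini and Hochberg's method over the 8516 genes that passed the count filter. A gene was called at an adjusted p below 0.05.

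The labelled line was checked against markers of its tissue. Krt8, Krt19, Epcam and Cdh1, which encode keratins and adhesion proteins of simple epithelium, had 0 or 1 count in each of the 12 control samples. Krt18 had 13 to 49 counts and Krt20, a keratin of the intestinal epithelium, had 45 to 111. Of the melanocyte genes, Sox10 had 0 counts in CT26 controls and 16 to 92 in the YUMM2.1 controls at 0 and 3 weeks, whereas Mlana had 0 in both lines. Dct had 0 to 8 counts in CT26 and 0 to 6 in YUMM2.1, Tyr and Pmel had at most 2 and 1 in CT26, and Gpnmb had 23 to 100. None of the 16 leukocyte genes on the list passed the filter. Of the 6 epithelial markers named here, Krt18 and Krt20 alone had more than 1 count in the CT26 controls.

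When amino acids run short or proteins misfold, the kinases of the integrated stress response phosphorylate eIF2α. The factor ATF4 is then translated and raises genes for amino acid uptake and synthesis and for its own feedback, such as Trib3 and Chac1. Aldo-keto reductases, aldehyde dehydrogenases and epoxide hydrolases detoxify reactive carbonyls, steroids and epoxides.

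After 3 weeks without IFNγ, 78 genes differed from the start, 0.916% of the genes tested. Of these, 49 were higher (0.575%) and 29 were lower (0.341%). The higher genes had a median log2 fold change of 0.80 and ranged from 0.34 to 3.93. The lower genes had a median of -0.74, with sizes from 0.32 to 1.80, beside a median of 0.00 over all tested genes. A change of more than 2-fold was seen in 14 higher and 10 lower genes. In all 78 called genes the 3 samples at 3 weeks lay outside the range of the 3 at 0 weeks, which was true in each direction of 10.4% of all tested genes. At an unadjusted p below 0.05 there were 1025 genes.

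The number of calls moved with the fit, and no called gene changed direction. With library totals in place of TMM scaling, 112 genes were called, 47 higher and 65 lower. DESeq2 called 126. A fit of the 12 control samples alone called 268, among them all 78. Leaving out 1 of the 6 libraries left 31 to 51 calls, the fewest without replicate 2 or replicate 3 at 0 weeks. Without each single library in turn, 22 of the 78 genes stayed called. The last 500 bases of the transcripts had a median GC content of 52.9% in the lower genes, 47.0% in the higher genes and 46.6% in all tested genes. With GC content smoothed out of each library, 32 higher and 12 lower genes were called.

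**Figure D1:**
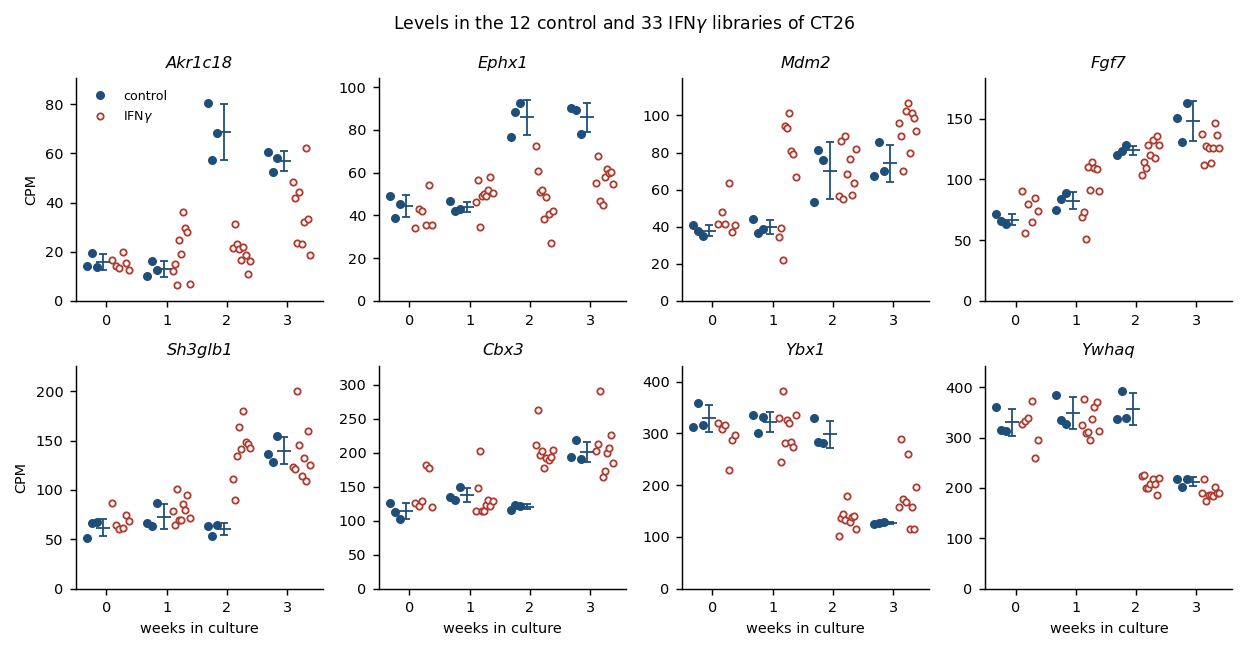
CPM (y axis, from 0) of 8 called genes by weeks in culture (x axis) in CT26, with filled points for the 12 control libraries, their means and SD bars beside them, and open points for the 33 IFNγ libraries. In controls Akr1c18 rose between 1 and 2 weeks, while Ybx1 stayed between 282 and 359 CPM until 2 weeks and then fell to 124 to 129 CPM.

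Among the higher genes were 4 described here together after their values were seen, 3 enzymes that act on carbonyls, steroids or epoxides and Tiparp. Akr1c18 (ENSMUSG00000021214, GRCm38 chr13:4132615-4150654) encodes an aldo-keto reductase that inactivates progesterone. It measured 14.2, 19.4 and 13.7 CPM at 0 weeks and 60.6, 52.4 and 58.0 CPM at 3 weeks. Its log2 fold change was 1.85 ± 0.31 (SE, n = 3 per group; edgeR adjusted p = 0.000373), and the call held without each single library. At 1 week it was still at 10.1, 16.3 and 12.7 CPM, and at 2 weeks it was at 80.4, 57.5 and 68.4 CPM, a log2 step of 2.39 (edgeR adjusted p = 1.8e-05). Ephx1, the microsomal epoxide hydrolase, also rose from 1 to 2 weeks (edgeR adjusted p = 0.00205). It measured 48.9, 38.7 and 45.2 CPM at the start, 46.8, 42.1 and 42.9 CPM at 1 week, 76.7, 88.5 and 92.5 CPM at 2 weeks and 90.02, 89.3 and 78.1 CPM at 3 weeks. Its log2 fold change over 3 weeks was 0.95 ± 0.16 (SE), and it held its call without each single library. Aldh3a1, an aldehyde dehydrogenase, rose from 16.3, 7.49 and 8.91 CPM to 31.9, 32.5 and 45.2 CPM, a log2 fold change of 1.77 ± 0.35 (SE). Its call was lost without replicate 2 at 0 weeks (edgeR adjusted p = 0.0569). Tiparp, a mono-ADP-ribosyltransferase induced by the aryl hydrocarbon receptor, rose from 24.8, 31.2 and 23.8 CPM to 50.7, 51.7 and 48.2 CPM and kept its call without each library.

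The list of NRF2 targets, genes of oxidative defence, held no called gene. Of its 19 tested genes, 0 were called in edgeR, 13 lay above 0 and the median was 0.17, with 4 at an unadjusted p below 0.05 and 1, the ferritin light chain Ftl1, called higher by DESeq2. Metallothioneins, which bind zinc and copper, had 2 tested members. Mt2 rose from 360.2, 369.1 and 357.2 CPM to 520.5, 504.3 and 592.2 CPM. It lost its call without any single library but replicate 2 at 3 weeks (edgeR adjusted p up to 0.175).

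Gpnmb, Fgf7, Ifitm1 and Spp1 encode surface or secreted proteins and were put together after their values were seen. Gpnmb (ENSMUSG00000029816, GRCm38 chr6:49036546-49070929), a transmembrane glycoprotein of melanosomes and lysosomes, rose from 17.7, 16.2 and 13.7 CPM to 40.9, 43.6 and 49.1 CPM, a log2 fold change of 1.5 ± 0.21 (SE; edgeR adjusted p = 2.91e-05). Fgf7, the keratinocyte growth factor, measured 71.6, 65.6 and 63.0 CPM at 0 weeks and 151, 131 and 163 CPM at 3 weeks. Ifitm1, an interferon-induced membrane protein that restricts virus entry, measured 106, 96.8 and 112 CPM at first and 224, 266.5 and 261 CPM at the end. All 3 are among the 7 genes whose call held under every alternative fit that was run. Between these times, Fgf7 stood at 75.2, 83.5 and 89.2 CPM at 1 week and at 120.2, 123 and 128 CPM at 2 weeks. Spp1 (osteopontin) went from 5628, 4999 and 4957 CPM to 8411, 7996 and 7077 CPM, a log2 fold change of 0.59 ± 0.12 (SE), and had reached 8272, 8849 and 8426 CPM by 2 weeks.

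Of the 18 tested genes of the extracellular matrix and its enzymes, Spp1 was the 1 called, and 14 lay below 0, with a list median of -0.47. Col1a2, a chain of type I collagen, measured 85.8, 141 and 97.5 CPM at 0 weeks and 56.5, 64.2 and 36.4 CPM at 3 weeks (edgeR adjusted p = 0.144), which was not called.

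Mdm2, which encodes the ubiquitin ligase of p53 and is itself a p53 target, rose from 41.1, 37.5 and 35.1 CPM to 67.1, 85.7 and 69.8 CPM. Its log2 fold change was 0.97 ± 0.18 (SE; edgeR adjusted p = 0.0014), and the call held without each library. It was the 1 called gene of 15 tested p53 targets, of which 11 lay above 0, with a median of 0.26. Cdkn1a, the cell cycle inhibitor downstream of p53, measured 157, 175 and 174 CPM at the start and 180, 154 and 167 CPM at 3 weeks, overlapping ranges.

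Lysosome and autophagy genes also stood among the higher genes. They were grouped after their values were seen. Gabarap, an ATG8 protein of autophagosomes, rose from 80.8, 75.6 and 64.8 CPM to 123, 123 and 116 CPM, and its call held without each library. Lamp2, a lysosomal membrane protein, Lamtor2, a subunit of the Ragulator complex that anchors mTORC1 to lysosomes, and Atp6v1f, a subunit of the proton pump, rose with log2 fold changes of 0.60, 0.52 and 0.45. Each of these 3 lost its call without 4 or 5 of the 6 single libraries (edgeR adjusted p up to 0.146, 0.184 and 0.149). Plin2, which coats lipid droplets, rose by 0.80 and lost its call without any single library but replicate 3 at 3 weeks (edgeR adjusted p up to 0.157).

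A smaller set of higher genes changed late, between 2 and 3 weeks. Sh3glb1, which encodes the membrane-bending protein endophilin B1, measured 51.8, 66.8 and 67.2 CPM at 0 weeks, 67.0, 63.8 and 87.2 CPM at 1 week, 63.4, 52.9 and 64.6 CPM at 2 weeks and 137, 129 and 155 CPM at 3 weeks. The 3-week samples stood clear of all the earlier ones. Its log2 fold change over 3 weeks was 1.18 ± 0.17 (SE) and that of the last week was 1.21 (edgeR adjusted p = 0.000118). Id2, a helix-loop-helix protein that blocks differentiation factors, rose from 57.4, 63.1 and 58.2 CPM to 122, 137 and 156 CPM, with 83.3, 78.2 and 72.3 CPM at 2 weeks. Its relative Id3 measured 67.4, 77.4 and 77.3 CPM at first and 135, 104 and 141.5 CPM at 3 weeks. Id3 lost its call without any single library but replicate 2 at 3 weeks (edgeR adjusted p up to 0.132), and Id2 kept its call without each. Both are on the list of TGFβ targets, of whose 13 tested genes 2 were called, 8 lay below 0 and the median was -0.05.

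Cbx3, which encodes the heterochromatin protein HP1γ, measured 103 to 126 CPM at 0 weeks, 134, 129.6 and 149 CPM a week later and 116 to 123 CPM at 2 weeks, and then reached 193, 218 and 191 CPM. The 1-week samples lay above those of 0 and 2 weeks and under the final ones. The call of its 3-week change held without each single library. Tfrc, the transferrin receptor, measured 42.5, 41.2 and 53.5 CPM at first and 83.5, 65.0 and 84.0 CPM at 3 weeks, and it lost its call without any single library but replicate 2 at 3 weeks (edgeR adjusted p up to 0.252).

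Tgtp1, a GTPase induced by interferon, had the largest fitted fold change, which could not be read for that gene alone. Its counts were 0 in 2 of 3 samples at 0 weeks and in all 3 at 2 weeks, while all 3 samples at 1 week had 22.9 to 29.2 CPM. The 3′ end of Tgtp2 is near identical to that of Tgtp1, and of the counts of both in CT26 controls Tgtp2 held 49.3%. With both genes summed, a choice made after the data were seen, the levels were 26.2, 23.8 and 27.3 CPM at 0 weeks, 22.9, 29.2 and 23.4 CPM at 1 week, 22.1, 34.5 and 25.1 CPM at 2 weeks and 59.8, 47.3 and 50.1 CPM at 3 weeks. The summed log2 fold change was 1.01 ± 0.19 (SE; edgeR adjusted p = 0.00137). Leaving out replicate 2 or replicate 3 at 0 weeks ended the call of Tgtp1 alone (edgeR adjusted p up to 0.0593).

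The list of interferon response genes held no called gene. Of 20 tested genes 0 were called in edgeR, 15 lay above 0 and the median was 0.35, with 3 at an unadjusted p below 0.05 and 1, B2m, called higher by DESeq2. Their summed level, scaled to library totals without TMM, was 2009 to 2065 CPM at 0 weeks and 2165 to 2273 CPM at 3 weeks. On that same scale it was 3883 to 4363 CPM in naive cells 24 h after IFNγ. TMM factors were 0.975 to 1.014 at 0 weeks and 0.935 to 0.969 at 3 weeks. The sums thus understate the rise on the TMM scale, which is the scale of the single genes given here. B2m is the light chain of MHC class I. It measured 753, 730.1 and 713 CPM at the start and 962, 977 and 1108 CPM at 3 weeks. It was not called (edgeR adjusted p = 0.0746). Its groups did not overlap, as in 10.4% of all tested genes in the higher direction. Ifi27l2a, an interferon-induced gene outside that list, fell, from 49.6, 50.6 and 36.3 CPM to 13.9, 16.2 and 17.2 CPM (log2 fold change -1.5 ± 0.24 SE). It had first stood higher, at 59.6, 77.4 and 101 CPM at 1 week. Ifitm3, a relative of Ifitm1 that is also interferon-induced and outside the list, rose from 734, 679.5 and 663 CPM to 913, 881 and 1057 CPM (log2 fold change 0.46 ± 0.11 SE; edgeR adjusted p = 0.026) and lost its call without 4 of the 6 libraries (edgeR adjusted p up to 0.205). Psme2, an activator subunit of the immunoproteasome, was the 1 called gene of 17 tested genes of MHC class I presentation and rose by 0.44 on the log2 scale. Its call was lost without any single library but replicate 1 at 0 weeks (edgeR adjusted p up to 0.168).

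Among the lower genes, 3 of the 24 tested ATF4 and amino acid response genes were called, all of them lower, beside 0.341% of all tested genes called lower. On this list 20 of 24 genes lay below 0, the median was -0.38 beside 0.00 over all genes, and 12 had an unadjusted p below 0.05, beside 1025 of the 8516 tested genes. Trib3, a pseudokinase that restrains ATF4, measured 34.7, 47.5 and 44.0 CPM at 0 weeks, 57.8, 52.3 and 39.5 CPM at 1 week, 41.3, 37.9 and 28.9 CPM at 2 weeks and 12.3, 19.2 and 17.2 CPM at 3 weeks. The 3-week samples were below all 9 earlier ones. Its log2 fold change was -1.36 ± 0.22 (SE; edgeR adjusted p = 0.000305), and the call held under every alternative fit that was run. Chac1, which degrades glutathione, fell from 34.0, 31.2 and 35.1 CPM to 14.7, 14.8 and 12.8 CPM (log2 fold change -1.25 ± 0.25 SE). Its call was lost without replicate 3 at 3 weeks (edgeR adjusted p = 0.052). Shmt2, the mitochondrial serine hydroxymethyltransferase, fell from 205, 203 and 215 CPM to 137, 142.5 and 155 CPM and lost its call without each of the 6 libraries (edgeR adjusted p up to 0.175).

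Other genes of the same list measured lower at 3 weeks without being called in edgeR, and DESeq2 called Slc3a2 lower beside Chac1, Shmt2 and Trib3. Gars, the glycyl-tRNA synthetase, measured 73.7, 96.8 and 90.9 CPM at the start and 39.3, 54.6 and 46.2 CPM at 3 weeks (edgeR adjusted p = 0.161). Slc3a2, the heavy chain of amino acid transporters, measured 120.5, 127 and 128 CPM and then 94.1, 98.2 and 90.9 CPM (edgeR adjusted p = 0.122). Atf4 itself stood at 238, 258 and 257 CPM and later at 175, 188 and 222 CPM (edgeR adjusted p = 0.252). In these 3 genes, picked after their values were seen, the groups did not overlap. That was true, in the lower direction, of 10.4% of all tested genes. Asns, asparagine synthetase, differed by -0.13 on the log2 scale and Psat1 by -0.15, and neither was called. The ER chaperones, which answer to protein misfolding, had 0 called genes in edgeR of 17 tested, a median of 0.00, 4 genes at an unadjusted p below 0.05 and 1, Hspa5 (BiP), called lower by DESeq2.

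**Figure D2:**
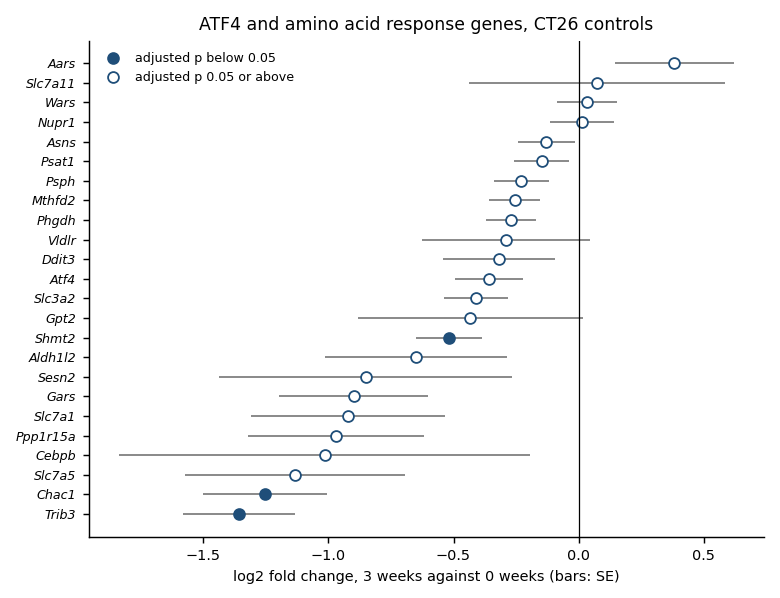
Log2 fold change of the 24 tested ATF4 and amino acid response genes, 3 weeks against 0 weeks in CT26 controls (x axis), with SE bars and filled points for called genes. Points of 20 genes lie below 0, and Trib3, Chac1 and Shmt2 were called.

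The promoters of the 2 ATF4 genes with the largest called changes are shown because most genes of the list lay below 0. They are the 250 bases before the RefSeq start in GRCm38.p6, 5′ to 3′ on the strand of the gene. Capitals mark matches to TGNNGCAA on either strand, a loose pattern for the composite element that ATF4 binds with C/EBP partners. Each N allows any base, so a match need not be a site that ATF4 binds. The Chac1 window is chr2:119350992-119351241 (plus strand) and the Trib3 window is chr2:152344061-152344310 (minus strand).
Chac1: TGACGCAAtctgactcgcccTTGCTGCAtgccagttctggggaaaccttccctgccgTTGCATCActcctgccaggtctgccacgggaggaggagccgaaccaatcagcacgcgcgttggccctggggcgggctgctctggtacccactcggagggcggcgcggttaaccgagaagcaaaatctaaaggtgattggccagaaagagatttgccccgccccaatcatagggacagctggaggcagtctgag
Trib3: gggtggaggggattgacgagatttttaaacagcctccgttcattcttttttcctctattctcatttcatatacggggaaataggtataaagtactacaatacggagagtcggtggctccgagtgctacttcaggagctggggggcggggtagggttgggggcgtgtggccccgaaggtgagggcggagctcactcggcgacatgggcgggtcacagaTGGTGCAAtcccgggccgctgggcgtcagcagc

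Chac1 held 3 matches and Trib3 held 1. Such a match was present in 9.59% of 32851 promoter windows of this length, in 8.02% of 8108 windows of tested genes and in 9 of 24 windows (37.5%) of the list. Of its 24 tested genes, Psat1, Slc7a1 and Vldlr had 2 windows each and 3 genes had none. The list was compiled from known ATF4 targets, and the motif was chosen after the values were seen, so these shares are a description.

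**Figure D3:**
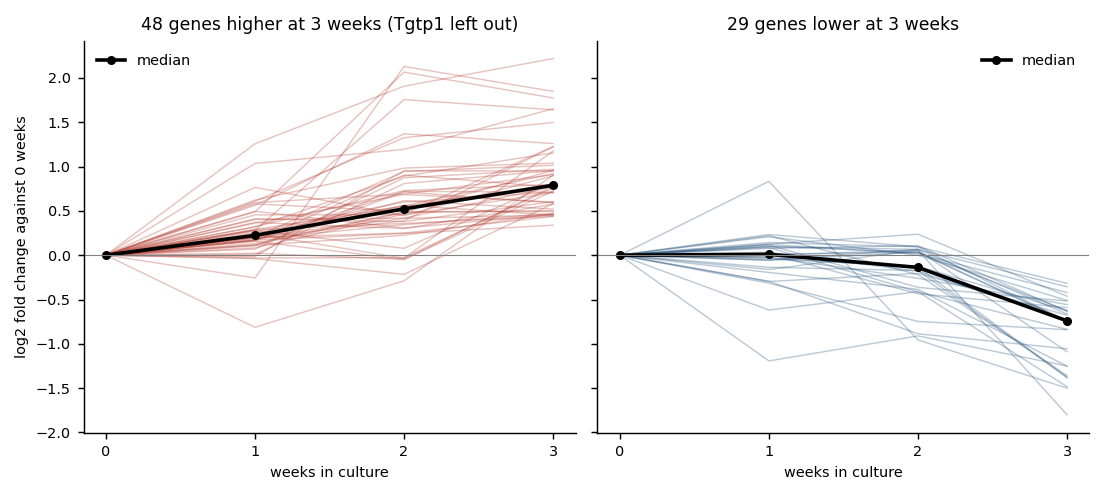
Log2 fold change against 0 weeks (y axis) by week (x axis) for the called genes in CT26 controls, thin lines for genes and a thick line for the median, in 1 panel for the 48 higher genes without Tgtp1 and 1 for the 29 lower genes. The median of the higher genes climbed at each week, to 0.22, 0.52 and 0.79, while that of the lower genes was 0.01 at 1 week, -0.14 at 2 weeks and -0.74 at 3 weeks.

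From 2 to 3 weeks, 15 of the 29 lower genes were called lower, beside 0.317% of all tested genes. That step shares the 3-week samples with the comparison that chose the 29 genes. Ybx1 (ENSMUSG00000028639, GRCm38 chr4:119277981-119294604) encodes a cold-shock protein that binds mRNA. It measured 312, 359 and 316 CPM at 0 weeks, 336, 301 and 332 CPM at 1 week, 329, 284 and 282 CPM at 2 weeks and 124, 126 and 129 CPM at 3 weeks. No 3-week sample came near the others. Its log2 fold change was -1.38 ± 0.19 (SE; edgeR adjusted p = 2.06e-05), and the call held under every alternative fit that was run. Ywhaq, a 14-3-3 protein, kept to 314 to 362 CPM at 0 weeks and 337 to 393 CPM at 2 weeks and then fell to 217, 202 and 218 CPM. Its call held without each library, whereas that of its relative Ywhaz, which fell by 0.32 on the log2 scale, was lost without each of the 6 libraries (edgeR adjusted p up to 0.201).

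Other lower genes, chosen for description after their values were seen, were Taf10, Wdr18, Znhit1 and Sec61b. Taf10, a subunit of TFIID, fell from 11.3, 17.5 and 26.7 CPM to 2.46, 5.17 and 7.37 CPM, a log2 fold change of -1.80 ± 0.35 (SE), and lost its call without replicate 3 at 0 weeks (edgeR adjusted p = 0.0975). Wdr18, which takes part in maturation of the large ribosomal subunit, measured 97.9, 91.8 and 86.2 CPM at first, 95.2, 92.0 and 94.4 CPM at 2 weeks and 57.3, 62.0 and 46.2 CPM at 3 weeks. Znhit1, a subunit of a chromatin remodeller, fell from 114, 106 and 81.4 CPM to 58.9, 52.4 and 67.3 CPM. The calls of Wdr18 and Znhit1 held without each library, and that of Znhit1 was lost with GC content smoothed out. Sec61b, a subunit of the ER protein channel, fell by 0.46 on the log2 scale, from 239, 194 and 213 CPM to 151, 143 and 172.5 CPM. It lost its call without 4 of the 6 libraries (edgeR adjusted p up to 0.162).

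Cell cycle genes were called in both directions. Ccnd2, cyclin D2, fell from 245, 232 and 259 CPM to 167, 156 and 155 CPM (log2 fold change -0.63 ± 0.12 SE) and kept its call without each library. Of 30 tested mitosis genes, Kif20a, a kinesin of cytokinesis, was called higher and Aurkb, the kinase of the chromosomal passenger complex, was called lower, with 14 genes above 0, 16 below and a median of -0.03. DESeq2 also called Plk1, a mitotic kinase, lower. Kif20a lost its call without replicate 2 at 0 weeks (edgeR adjusted p = 0.0836), and Aurkb lost its call without replicate 3 at 0 weeks or replicate 3 at 3 weeks (edgeR adjusted p up to 0.0843). Of 31 tested genes of DNA replication and S phase, 0 were called in edgeR and 5 had an unadjusted p below 0.05, with a median of 0.00 and 0 called by DESeq2.

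Energy metabolism held 4 called list members. Of 23 tested genes of glycolysis and hypoxia, Pkm (pyruvate kinase) was called higher and Bnip3, a mitophagy receptor induced by hypoxia, was called lower, and the median was -0.14. Pkm lost its call without each of the 6 libraries (edgeR adjusted p up to 0.275), and Bnip3 without replicate 1 at 0 weeks, replicate 1 at 3 weeks or replicate 3 at 3 weeks (edgeR adjusted p up to 0.153). Of 51 nuclear genes of the respiratory chain and ATP synthase, Atp5g3, the ring subunit of ATP synthase, was called lower, while 39 genes lay above 0 and the median was 0.14. DESeq2 also called Ndufa1 and Ndufb9, subunits of complex I, higher. Atp5g3 lost its call without any single library but replicate 3 at 3 weeks (edgeR adjusted p up to 0.204). Of the 13 mitochondrially encoded genes, mt-Co3, a subunit of cytochrome oxidase, was called higher at 9216, 9433 and 9245 CPM against 13530, 12290 and 13690 CPM. It kept its call without each library and lost it with GC content smoothed out. DESeq2 also called mt-Co2, another subunit of that enzyme, higher.

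Week by week, the called genes were divided into an early and a late set by a cut. The cut was 50% of the 3-week log2 change reached by 2 weeks. Values ran up to it from both sides, with Blnk at 50% and Slc25a4 at 47.9%. Tgtp1 counted as late with 0 counts at 2 weeks. At 1 week against 0 weeks, 1 gene was called (0.0117%), Tgtp2, the near-identical partner of Tgtp1, named here after its values were seen, and it was lower, whereas DESeq2 called 4 higher and 1 lower. At 2 weeks against 0 weeks, 20 genes were higher and 1 lower (0.247% in all), or 15 and 6 with library totals as the scaling and 43 and 8 with DESeq2. These comparisons share the 0-week samples with the 3-week comparison. Of the 49 higher genes, 38 had reached at least 50% of their 3-week log2 change by 2 weeks, with a median of 75.9%. Of the 29 lower genes, 23 had not, with a median of 12.5%. At 1 week the samples already lay outside the 0-week range in 25 of the higher genes (7.63% of all tested genes) and 3 of the lower genes (9.82%). Because the percentages share their end points with the calls, they are a description and were not tested.

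The step from 1 to 2 weeks has no sample in common with the comparison of 3 weeks with 0 weeks. In that step 10 genes were called higher (0.117%) and 8 lower (0.0939%) over all genes, or 18 and 22 with DESeq2. Of the 49 higher genes, 8 were called higher there (Akr1c18, Aldh3a1, Ifitm1, Fgf7, Mdm2, Ephx1, Acot13 and Spp1), 1 was called the opposite way (Tgtp1), and the median was 0.32. Of the 29 lower genes, the 1 called was lower (Ifi27l2a), and the median was -0.08. The samples of both times did not overlap, in the direction of the 3-week change, in 22 of the higher genes (8.48% of all tested genes) and 7 of the lower genes (7.57%). The step from 2 to 3 weeks, which shares the 3-week samples, called 12 genes higher (0.141%) and 27 lower (0.317%), of which 8 and 15 belonged to the higher and lower genes. There 20 of the higher genes (background 8.62%) and 23 of the lower genes (8.77%) did not overlap. The labels give the week but not how samples were batched at harvest or library preparation. Effects of such batches cannot be told apart from time in culture.

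Whether the same genes changed with time in the presence of IFNγ was asked in the 9 IFNγ samples at 1 week and the 9 at 3 weeks, none of which is a control. Over all genes, 629 genes were called (7.39%), 260 higher at 3 weeks (3.05%) and 369 lower (4.33%). The split was 389 and 265 with library totals as the scaling and 171 and 382 with GC content smoothed out. Of the 49 genes higher in controls, 25 were called here, all higher, and 49 had the same sign. Of the 29 genes lower in controls, 22 were called, all lower, and 28 had the same sign. Celf1, an RNA-binding regulator of splicing, was the exception at 0.18. The share of all tested genes with the same sign in both sets was not counted. In these cultures the length of IFNγ exposure equals time in culture. Both sets carry the same week labels, so a harvest or library preparation common to a week cannot be told apart from time. Over tested genes, log2 fold change and GC content correlated (Spearman) at -0.1 in controls and -0.16 here. Trib3 changed there by -1.49 on the log2 scale (edgeR adjusted p = 4.18e-10), from a median of 50.4 CPM (38.8 to 56.6 CPM) to 18.2 CPM (7.94 to 23.4 CPM), with no overlap. Samples of the 2 times did not overlap in 10 of the 29 lower and 2 of the 49 higher genes. The share over all tested genes was not counted, so these numbers cannot be set against a background. Ybx1 overlapped, with a 3-week range of 114 to 289.7 CPM around a median of 167 CPM, against 245 to 383 CPM at 1 week.

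**Figure D4:**
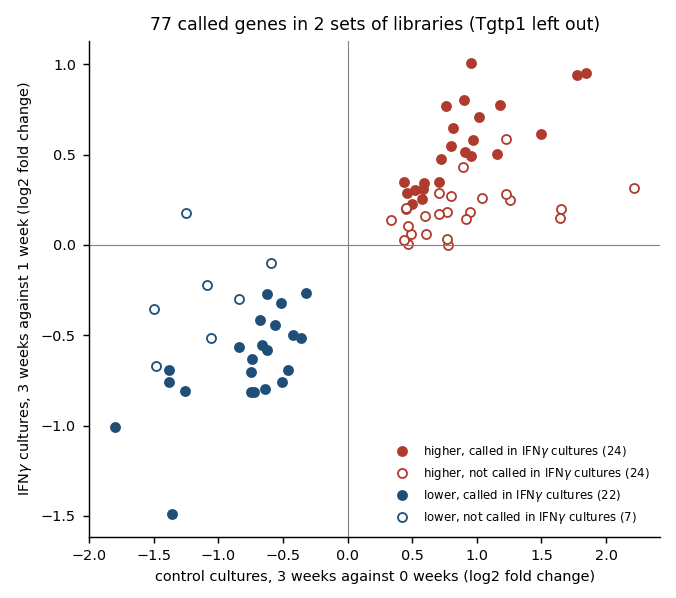
Log2 fold change of each called gene in controls, 3 weeks against 0 weeks (x axis), and in the IFNγ cultures, 3 weeks against 1 week (y axis), which share no sample. Filled points were called in the IFNγ cultures. Tgtp1 is left out, and of the 77 genes drawn, Celf1 alone lies on opposite sides of 0 in the 2 sets.

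For 7 of the late genes, 3 of 11 higher and 4 of 23 lower, the change from 1 to 2 weeks differed between the IFNγ cultures and the controls. Over all genes this difference was called for 0.658%. Late genes were picked by their small change in the 2-week controls, which the difference also uses, so the count is a description. Among the 7 is Tgtp1, whose counts cannot be separated from those of Tgtp2. Ybx1 measured 245 to 383 CPM in the 9 IFNγ samples at 1 week, with a median of 320.1, but 102 to 179 CPM at 2 weeks, with a median of 137, when the 3 controls still had 282 to 329 CPM. From 1 to 2 weeks it changed by -1.18 on the log2 scale in the IFNγ cultures, and the difference from the controls was -1.07 ± 0.22 (SE; edgeR adjusted p = 0.00502). Ywhaq did the same, with 295 to 376 CPM at 1 week, 186 to 225 CPM at 2 weeks and a difference of -0.70 ± 0.12 (SE). Sh3glb1 moved upward, from 64.7 to 101 CPM at 1 week to 90.2 to 180 CPM at 2 weeks, while the controls at 2 weeks had 52.9 to 64.6 CPM. Its difference was 1.09 ± 0.21 (SE; edgeR adjusted p = 0.00317). This step in the IFNγ cultures and its difference from the controls were added after the data were seen.

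Over all genes, the step from 1 to 2 weeks in IFNγ cultures called 321 genes (3.77%), 117 higher (1.37%) and 204 lower (2.4%), or 80 and 291 with library totals as the scaling. Of the 23 lower genes that moved late in controls, 19 were called lower in that step, with a median of -0.48 beside -0.05 in controls. Of the 11 higher genes that moved late, 8 were called higher, with a median of 0.58 beside -0.07. Of the 38 higher genes that moved early in controls, 6 were called higher, with a median of 0.16 beside 0.36. The late and early sets were defined with the 2-week controls, which the medians in controls and the difference from controls share. The difference between IFNγ cultures and controls was called for 56 genes (0.658%), 24 higher (0.282%) and 32 lower (0.376%), or for 31 genes with GC content smoothed out and 11 to 17 without a replicate number. Among the 56 were Cbx3 (0.85), Wdr18 (-0.82) and Sec61b (-0.74). The difference had the sign opposite to the 3-week change for Akr1c18 (-2.33 ± 0.39 SE) and Ephx1 (-1.05 ± 0.19 SE), which rose in the 2-week controls. Akr1c18 stood at 10.9 to 31.3 CPM in the IFNγ samples at 2 weeks and at 18.5 to 62.2 CPM at 3 weeks. IFNγ exposure, harvest and library preparation cannot be told apart in this difference.

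The question of whether another line drifted alike was asked in the YUMM2.1 controls, 3 weeks against 0 weeks. These held 1867497, 812316 and 1613228 counts at 0 weeks and 2354083, 2663541 and 3047691 at 3 weeks. Depth and week thus moved together in this line and cannot be told apart. There 50 genes were called (0.521%), 24 higher (0.25%) and 26 lower (0.271%). The split was 33 and 74 with library totals and 38 and 71 with DESeq2. Of the 40 higher CT26 genes tested in YUMM2.1, 2 were called higher, Gpnmb and Acot13. Gpnmb measured 69.3, 57.4 and 72.1 CPM at 0 weeks and 144, 143 and 159 CPM at 3 weeks, a log2 fold change of 1.15 ± 0.15 (SE; edgeR adjusted p = 4.11e-06). Acot13, a thioesterase of fatty acyl-CoA, rose by 0.58 in YUMM2.1 (edgeR adjusted p = 0.04995) and by 0.77 in CT26, where it lost its call without replicate 2 at 0 weeks (edgeR adjusted p = 0.0843). Their difference between lines was not called (edgeR adjusted p = 0.795 and 0.899). Of the 28 lower genes tested there, the 2 called were both higher, Ybx1 and Atp5g3. Ybx1 went from 126, 123 and 104 CPM to 272.5, 262 and 259 CPM in YUMM2.1.

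The change differed between the lines for 19 genes (0.184%), 12 with a higher value in CT26 (0.116%) and 7 with a lower one (0.0677%), or 61 and 21 with DESeq2. Of the 19, 13 were called in CT26 over 3 weeks. The difference uses the same CT26 samples as those calls, so this overlap is a description. The difference, CT26 less YUMM2.1 on the log2 scale, was -2.58 ± 0.25 (SE) for Ybx1, 1.20 for Id2, 1.10 for Sh3glb1, 1.21 for Mdm2 and 1.12 for Ephx1. Trib3 and Chac1 had log2 fold changes of -1.43 and -1.28 in YUMM2.1, on at most 10.3 and 7.33 CPM, which were not called there (edgeR adjusted p = 0.239 and 0.714). Their differences between the lines were 0.04 and -0.06 and were not called either, on few counts in YUMM2.1.

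**Figure D5:**
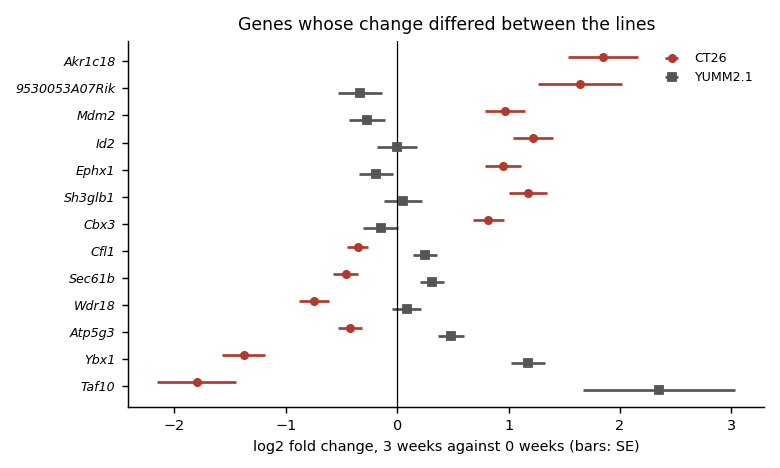
Log2 fold change with SE bars, 3 weeks against 0 weeks (x axis), of the 13 called CT26 genes whose change differed between the lines (y axis), circles for CT26 and squares for YUMM2.1. Ybx1 lies at -1.38 in CT26 and at 1.17 in YUMM2.1, and Akr1c18, not tested in the fit of YUMM2.1 alone, has no square.

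Further lists held few or no called genes. Of 20 tested genes of sterol synthesis 0 were called in edgeR, 14 lay above 0 and 6 had an unadjusted p below 0.05, and DESeq2 called 0. Of 12 heat shock genes, Cryab, a small heat shock protein, was called higher, from 17.0, 18.7 and 13.7 CPM to 27.0, 36.9 and 35.4 CPM. It lost its call without any single library but replicate 1 at 3 weeks (edgeR adjusted p up to 0.17). DESeq2 also called Hspa8, a constitutive chaperone, higher. The 16 genes that lost their call whichever library was left out were Pxmp4, Il1rl1, Blnk, Galk2, Ect2, Hsbp1 and Pkm among the higher and Ctbp1, Celf1, Arid5a, Aldh18a1, Hikeshi, Wdr74, Shmt2, Cfl1 and Ywhaz among the lower. Of the genes with the largest changes, 2510002D24Rik rose from 2.13, 1.87 and 2.97 CPM to 13.9, 5.17 and 14.2 CPM, and Arrdc3, an arrestin-domain protein, from 12.1, 12.5 and 14.3 CPM to 40.1, 23.6 and 28.5 CPM. Each lost its call without 5 of the 6 libraries (edgeR adjusted p up to 0.156 and 0.198). Coq4, of ubiquinone synthesis, and B9d2, of the ciliary transition zone, fell by 1.38 and 1.09 on the log2 scale, and each lost its call without 5 libraries (edgeR adjusted p up to 0.241 and 0.175). Ensa, a phosphatase inhibitor of mitosis, rose from 46.8, 44.3 and 49.3 CPM to 67.1, 95.2 and 77.7 CPM and kept its call without each library.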

How the data were processed

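RNA of CT26 and YUMM2.1 cultures was measured in triplicate by 3′ digital gene expression. The authors deposited 1 table of whole-number counts per gene and sample for 53697 gene identifiers, not normalized and not pooled, and 0 columns were left unused. The submitters' processing notes name Salmon 0.13.1 and the build mm10, and the study's methods name tximport for the import of counts. The annotation and the treatment of duplicate molecules are not given in the sources used here. Each sample was grouped by its label. Of the identifiers, 53668 were matched to symbols, and positions are from GENCODE on GRCm38.

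Counts were analysed in R 4.3.3 with edgeR 4.0.16 (filterByExpr by group, TMM, 1 quasi-likelihood model per line with its 15 groups and no covariates, Benjamini-Hochberg adjustment, threshold 0.05). The 45 samples of a line thus shared one estimate of the spread, and both lines entered the test of their difference. The study discarded 4 CT26 samples that it does not name, and all were kept here. Genes named were the 12 with the largest called change in each direction, every called member of a list, every gene also called from 1 to 2 weeks, and up to 10 called in the difference between the lines. Others are examples chosen after their values were seen. The members and the 24 gene lists were chosen with earlier results of these data known. Lists are described by counts of calls and medians, without a test. Near-identical 3′ ends (95% over 250 bases) were found with BLAST 2.17.0, and GC content is that of the last 500 bases. On simulated counts for 8080 genes with 200 changed by 2 on the log2 scale, this comparison recovered 83.5% with 4 false calls, and 0 calls were made with none changed (8071 genes). Called genes had smaller median changes, 0.80 and -0.74, and the recovery of changes of that size was not simulated. Each simulated gene took the spread typical of its level, without a spread of its own. Alternatives were DESeq2 1.42.0, library totals, no filter, the groups compared only, the replicate number as a block, each replicate number or library left out, samples under 25% of the median depth left out and, added after the data were seen, GC smoothing and summed near-identical genes.

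At the depth of these samples, genes of a few CPM rest on few counts, and counting error alone is then large.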

Additional observations from a re-analysis of the deposited data

Results flagged for a closer look

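The change over 3 weeks differed between CT26 and YUMM2.1 controls, by a test of the difference itself, for 19 genes. Of these, 13 were called in CT26, from the same CT26 samples that enter the difference, so the overlap is a description. The log2 difference, CT26 less YUMM2.1, was 3.07 for Akr1c18, 1.94 for 9530053A07Rik, 1.21 for Mdm2, 1.20 for Id2, 1.12 for Ephx1, 1.10 for Sh3glb1 and 0.94 for Cbx3. It was -4.19 for Taf10, -2.58 for Ybx1, -0.93 for Atp5g3, -0.86 for Wdr18, -0.80 for Sec61b and -0.63 for Cfl1. Akr1c18 had 3 to 9 counts in the YUMM2.1 control samples, and Taf10 had 1 to 4 at 0 weeks and 9 to 28 at 3 weeks, so both differences rest on few counts in that line.

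The change from 1 to 2 weeks differed between the IFNγ cultures and the controls of CT26, by a test of the difference itself, for 56 genes, of which 10 were among the 78. The log2 difference, IFNγ less control, was 8.61 for Tgtp1, 1.13 for Ifi27l2a, 1.09 for Sh3glb1 and 0.85 for Cbx3. It was -2.33 for Akr1c18, -1.07 for Ybx1, -1.05 for Ephx1, -0.82 for Wdr18, -0.74 for Sec61b and -0.70 for Ywhaq. The value of Tgtp1 is not a bound, since its 3 controls at 2 weeks had 0 counts while the near-identical Tgtp2 held the reads.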

How the results depend on the processing

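No called gene reversed: over the alternatives 904 values of single genes kept their call and 495 lost it. For 3 weeks against 0 weeks (78 calls), DESeq2 gave 126, no filter 133, only the groups compared 220, only the 12 control samples 268 and GC smoothing 44, and leaving out a replicate number gave 13 to 27 and a single library 31 to 51. For 1 week against 0 weeks (1 call), DESeq2 gave 5, library totals 0, no filter 94, only the groups compared 55 and leaving out a replicate number 0 to 2. For 2 weeks against 0 weeks (21), DESeq2 gave 51, no filter 84, only the groups compared 93 and a replicate number left out 4 to 10. For 2 weeks against 1 week (18), the counts were 40 with DESeq2, 28 with library totals, 76 without the filter, 39 with only the groups compared, 11 with GC smoothing and 7 with a replicate number left out. For 3 weeks against 2 weeks (39), they were 76 with DESeq2, 89 without the filter, 83 with only the groups compared and 7 to 20 with a replicate number left out. In the IFNγ cultures, 3 weeks against 1 week (629) gave 310 with only the groups compared and 170 to 520 with a replicate number left out, and 2 weeks against 1 week (321) gave 76 to 203 with one left out. The difference of IFNγ cultures and controls (56) gave 118 with DESeq2, 132 without the filter, 108 without low-depth samples, 31 with GC smoothing and 11 to 17 with a replicate number left out. YUMM2.1 (50) gave 109 with DESeq2, 107 with library totals, 96 without the filter, 120 with only the groups compared and 9 to 15 with a replicate number left out. The difference between the lines (19) gave 82 with DESeq2, 45 with library totals, 46 without the filter, 106 with only the groups compared and 1 to 7 with a replicate number left out. Leaving samples out leaves fewer samples, and GC smoothing removes a trend with GC by construction, and for the other settings the cause was not tested.

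Deviations of same-numbered 0-week and 3-week samples correlated at 0.05, -0.02 and 0.05 over genes. Counting error lowers such values, so they cannot show whether the replicate numbers pair the samples. With the replicate number as a block, 81 genes were called for 3 weeks against 0 weeks, and the block moved none of these counts by more than 1.5 times. Library totals in place of TMM moved the median of all genes by -0.08. Depth limits the genes of a few CPM, for which a missed call does not show that the level stayed.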

Other observations

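Further lists held no called gene in edgeR for 3 weeks against 0 weeks. Of 11 tested genes of fatty acid synthesis 10 lay below 0, with a median of -0.23, 2 at an unadjusted p below 0.05 and 0 called by DESeq2. Srebf1, a regulator of lipid synthesis, measured 11.3, 19.4 and 13.1 CPM at the start and 4.09, 5.17 and 7.86 CPM at 3 weeks (edgeR adjusted p = 0.122). Fasn, fatty acid synthase, measured 39.0, 38.1 and 41.6 CPM and then 20.5, 22.9 and 24.1 CPM (edgeR adjusted p = 0.286). Of 18 tested YAP and serum response targets 14 lay below 0, with a median of -0.29, 3 at an unadjusted p below 0.05 and 1, the tropomyosin gene Tpm4, called lower by DESeq2. Of 6 tested genes of keratins and epithelial adhesion all 6 lay above 0, with a median of 0.33, 3 at an unadjusted p below 0.05 and 0 called by DESeq2. Of 8 tested NF-kB targets and chemokines 6 lay above 0, with a median of 0.30, 3 at an unadjusted p below 0.05 and 0 called by DESeq2.

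Of 15 tested immediate-early genes 7 lay above 0 and 8 below, with a median of -0.12, 0 at an unadjusted p below 0.05 and 0 called by DESeq2. Of 6 tested nuclear-retained RNAs 3 lay above 0 and 3 below, with 1 at an unadjusted p below 0.05 and 0 called by DESeq2. Of 13 genes of the melanocyte lineage, Gpnmb was the 1 tested.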
